A study of Mus musculus with 12 samples.

Results

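Irgm1 and 3 relatives, Irgm2, Igtp and Iigp1, belong to the immunity-related GTPases of the mouse. They were measured in the RNA of exosomes, the small vesicles that cells release, from HL-1 cells. The 4 genes were taken by symbol from 16593 named genes on the array, and 7 of its 25696 probes carried them, 3 for Irgm1, 1 for Irgm2, 1 for Igtp and 2 for Iigp1. Irgm1 was picked by its signal, as one of the brightest transcripts on all 12 arrays, so its level and its detection are given as a description and support nothing.

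HL-1 is a cell line of cardiomyocytes from the mouse atrium that still contracts when cultured, and every group shared it. The TGF-β2 group received 10 ng/mL TGF-β2, the PDGF-BB group received 100 ng/mL PDGF-BB and the control group received no growth factor, with 4 samples each. All cultures spent 23 h in serum-free medium. The arrays lay on 2 chips, chip 1 with TGF-β2 samples 1 and 4, PDGF-BB samples 1 and 4 and control samples 2 and 3, and chip 2 with the rest. Per the study's methods, each sample was the exosome yield of 1 culture flask of this line, so that the spread between samples is a spread between flasks and not between animals. The study also set aside a PDGF-BB sample for poor hybridization and labelling, but the labels do not name it, and all 4 were used here.

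The immunity-related GTPases are a family of proteins, many of which mouse cells make in large amounts when interferon reaches them. These protect against bacteria and protozoa that live in vacuoles inside the cell. Irgm1, Irgm2 and Igtp (also called Irgm3) are regulators that sit on the cell's own membranes, such as the Golgi apparatus, the endoplasmic reticulum and lipid droplets, and keep the other members inactive there. Iigp1 (also called Irga6) is an effector that gathers on the vacuole of Toxoplasma gondii and takes part in breaking it. Irgm1 is also known for its links to autophagy and to mitochondria.

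Irgm1, Irgm2 and Igtp lie on chromosome 11, with Igtp and Irgm2 next to each other in the RefSeq annotation of GRCm38.p6, while Iigp1 lies on another chromosome. The promoters of the 3 regulators are shown because mouse cells make these proteins in large amounts when interferon reaches them. A promoter window here is the 250 bases before to 50 bases after the start of a gene. The capitals mark matches to GAAANNGAA, the core of the interferon-stimulated response element, in 80 bases of each window, printed 5′ to 3′ on the gene's own strand from RefSeq (GRCm38.p6). They are chr11:48871406-48871485 (minus strand) for Irgm1, chr11:58214878-58214957 (plus strand) for Irgm2 and chr11:58199487-58199566 (plus strand) for Igtp.
Irgm1: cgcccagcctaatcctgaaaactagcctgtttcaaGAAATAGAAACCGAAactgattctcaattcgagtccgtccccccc
Irgm2: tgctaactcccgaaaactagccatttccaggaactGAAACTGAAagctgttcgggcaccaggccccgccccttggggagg
Igtp: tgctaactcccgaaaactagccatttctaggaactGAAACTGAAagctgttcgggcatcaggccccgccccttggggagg

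The Irgm1 window held 2 overlapping matches, GAAATAGAA and GAAACCGAA, the first of which began 30 bases before the start. Irgm2 and Igtp held 1 match each, GAAACTGAA, which began 64 bases before the start in Irgm2 and 34 bases before it in Igtp. GAAANNGAA was found on either strand in 2812 of 32851 promoter windows of the same length (8.56%). TTCNNNGAA, the core of the gamma-activated site, was found in 2726 of them (8.30%), in Irgm2 and in Igtp among others. It overlapped no GAAANNGAA match in these windows, and the letters were not found in the Irgm1 window. Aligned over the whole window, Irgm2 and Igtp were identical at 73.5% of positions, Irgm1 and Irgm2 at 52.6%, and Irgm1 and Igtp at 53.3%. These matches describe letters and not binding, which was not measured.

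The files hold for each probe and array a scanner signal, a fluorescence intensity averaged over the beads of the probe after a background was subtracted, and a detection p-value, which gives the share of negative controls on that array that were at least as bright. A probe was called detected at a detection p-value below 0.01, the threshold of the methods for exosome samples. The study also asked that a transcript be found in the parental cells and in every sample of a group. Those further conditions were not applied here. Between 294 and 1506 probes were detected per array, and the lowest signal so called lay between 46.9 and 82.4. Detection on all 12 arrays was rare, with 26 of 25696 probes (0.101%), and detection on at least 1 array was reached by 3336 probes (13%). Of 14 cardiomyocyte markers, 7 were detected on at least 1 array (50%) and 4 on at least 6 (28.6%). The shares of all named genes were 17.3% and 2.08%. Myl4, the atrial essential myosin light chain, and Atp2a2, the pump that returns calcium to the sarcoplasmic reticulum, were detected on 11 arrays each. Nppa, Tnni3, Actc1, Myh7, Ryr2, Actn2 and Mybpc3 were detected on no array. Of 11 leucocyte markers only Cd14 was detected, on 1 control array. Of 9 fibroblast markers 3 were detected (33.3%), each on 1 or 2 arrays, and of 8 endothelial markers 0.

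Of the 7 probes, 1 was detected. The Irgm1 probe ILMN_2804037 had a detection p-value of 0 on 12 of 12 arrays, that is, a signal above every negative control, as the choice of the gene implies. Its signal was 1381, 2224, 7639 and 1254 in TGF-β2 samples 1 to 4. In PDGF-BB samples 1 to 4 it was 207, 1151, 4790 and 626. In control samples 1 to 4 it was 696, 2975, 3806 and 1345. The highest array, TGF-β2 sample 3, was 36.9-fold above the lowest, PDGF-BB sample 1, and the values of the 3 groups overlapped. The bead standard error was only 4.00 to 9.52% of the signal, from 26 to 51 beads, so the spread between arrays was far wider than the error within an array. The spread within a group was 6.09-fold for TGF-β2, 23.2-fold for PDGF-BB and 5.47-fold for the control.

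**Figure D1:**
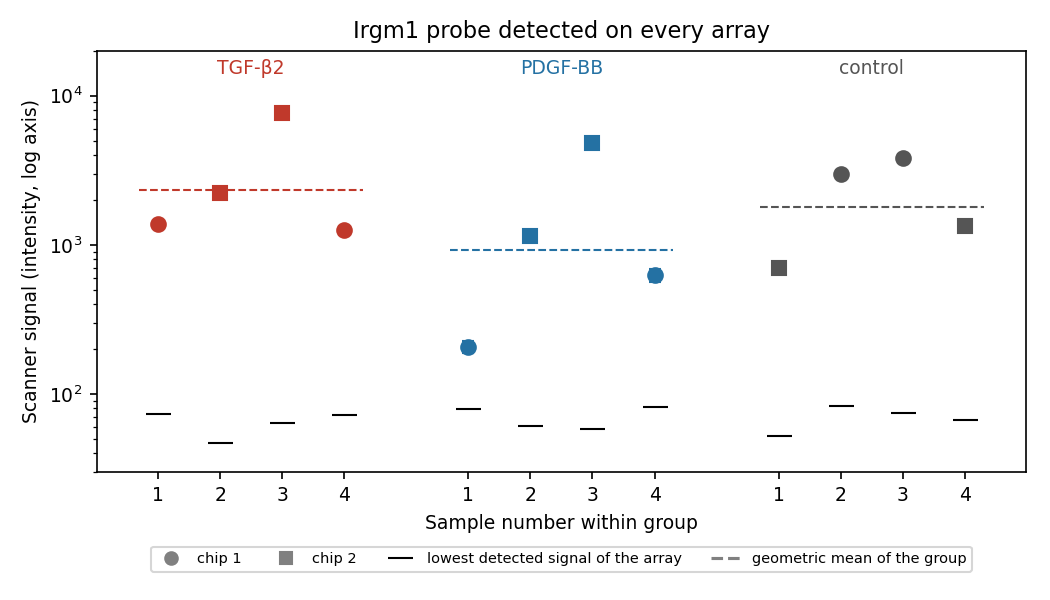
Scanner signal of the detected Irgm1 probe (intensity, log axis) in each of the 12 samples, with circles for chip 1 and squares for chip 2, bars for the bead standard error (mostly smaller than the symbol), dashed lines for the geometric mean of each group and short black lines for the lowest detected signal of each array. All 12 values lie above the detection level of their array, from 207 in PDGF-BB sample 1 to 7639 in TGF-β2 sample 3, and the groups overlap.

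Within its array the probe was the 5th, 6th, 3rd and 5th brightest probe in TGF-β2 samples 1 to 4, the 6th, 3rd, 5th and 8th in PDGF-BB samples 1 to 4, and the 3rd, 7th, 4th and 7th in control samples 1 to 4. Irgm1 was therefore among the 8 brightest of 25696 probes on every array, which is the property it was picked by. Probes differ in how strongly they respond, so a rank does not order transcripts by abundance.

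The signal of Irgm1 as a share of the summed signal of all detected probes was 1.64, 1.62, 2.26 and 1.68% in TGF-β2 samples 1 to 4. It was 0.467, 3.03, 2.14 and 1.31% in PDGF-BB samples 1 to 4. It was 1.78, 1.41, 1.70 and 1.45% in control samples 1 to 4. PDGF-BB held the lowest and the highest share of the 12 samples, and the other groups lay inside its range.

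The relatives were not detected. Irgm2, the regulator linked to the Golgi apparatus, had signals of -2.62, 5.08, -4.98 and 14.4 in TGF-β2 samples 1 to 4 and of -18.7, -19.2, 28.2 and -4.33 in PDGF-BB samples 1 to 4. In control samples 1 to 4 its signals were 14.3, 1.20, -4.97 and 27.2. A negative value means a signal below the background that the software subtracted. The Irgm2 values of every group spanned 0, and the lowest detection p-value of the probe was 0.159.

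Igtp, the regulator found on the endoplasmic reticulum, had signals of 8.89, 4.59, 1.17 and -11.2 in TGF-β2 samples 1 to 4 and of 28.0, 1.61, 31.1 and -12.5 in PDGF-BB samples 1 to 4. In control samples 1 to 4 its signals were 3.46, 29.4, 26.3 and 12.8. All 4 control values were above 0, but none reached detection, and the lowest detection p-value of the 12 was 0.122, in PDGF-BB sample 3. The groups overlapped.

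Iigp1, the effector, had 2 probes. The signal of ILMN_1229996 was 17.7, -2.23, 35.2 and -2.96 in TGF-β2 samples 1 to 4, 40.0, 2.99, 38.7 and 11.05 in PDGF-BB samples 1 to 4, and -10.2, 9.42, -7.31 and 25.7 in control samples 1 to 4. The signal of ILMN_2612776 was -5.87, -7.62, -13.3 and -5.09 in TGF-β2 samples 1 to 4, -34.1, -10.1, -4.11 and 25.7 in PDGF-BB samples 1 to 4, and -16.6, 23.4, -29.9 and 41.9 in control samples 1 to 4. Both probes were highest among the control samples in sample 4, and in the other groups their highest values fell on different samples. The lowest detection p-values were 0.0752 for the first, in PDGF-BB sample 3, and 0.0677 for the second, in control sample 4, which was the lowest of any undetected member probe. Both missed the threshold.

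Over the 4 probes of the relatives, the 16 values of the TGF-β2 group had a median of -2.42 (range -13.3 to 35.2), the 16 of the PDGF-BB group 2.30 (-34.1 to 40.0) and the 16 of the control group 11.1 (-29.9 to 41.9). Of the 48 values, 27 were above 0. All were below the lowest detected signal of any array, 46.9. Since 13% of all probes on the array were detected on at least 1 array, 0 of 4 is close to that background and does not set the relatives apart from other genes. The transcripts were not detectable at this signal, which is not the same as absent. Each array measured the RNA of many vesicles, so fewer vesicles with a transcript and less of it per vesicle cannot be told apart.

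The other 2 Irgm1 probes were not detected either. ILMN_1234539 had signals of 44.7, -6.21, -24.6 and 36.2 in TGF-β2 samples 1 to 4, of -24.2, 3.86, -15.5 and -6.94 in PDGF-BB samples 1 to 4, and of -2.43, 38.4, -9.35 and -25.1 in control samples 1 to 4. ILMN_2711172 ranged from -29.0 to -7.12 in the TGF-β2 group, from -43.7 to 16.6 in the PDGF-BB group and from -42.4 to -1.90 in the control group, with 11 of 12 values below 0. On TGF-β2 sample 3, where the detected probe read 7639, these probes read -24.6 and -15.3. The lowest detection p-value of the pair was 0.0714. The annotation gives all 3 probes to the gene Irgm1. Which transcript each probe matches, and where on it, was not analysed here. Whether the probes read the same part of a transcript is therefore not known.

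**Figure D2:**
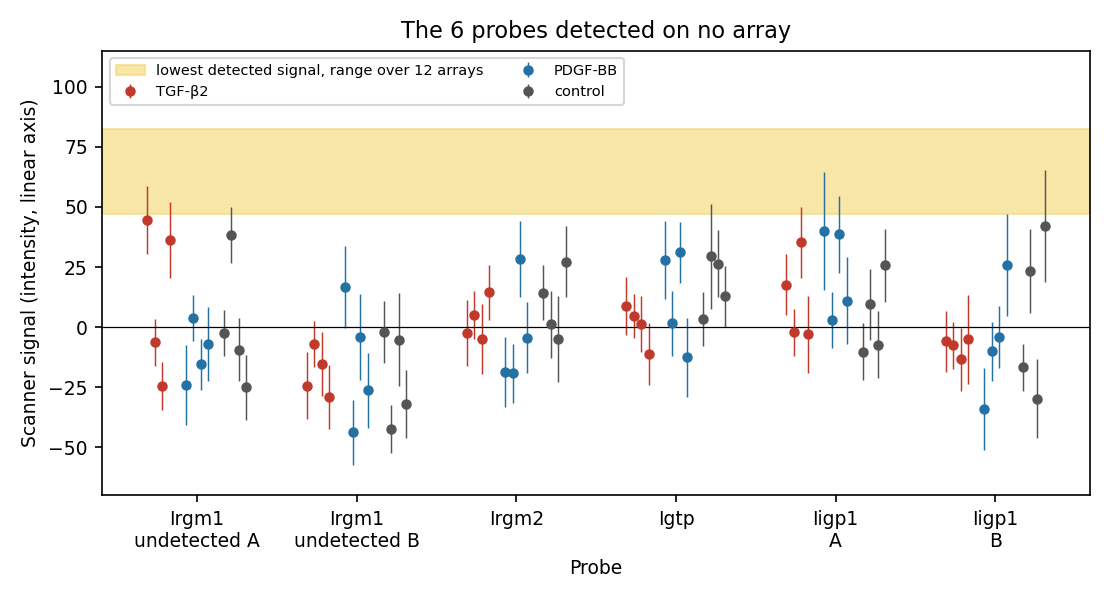
Scanner signal (intensity, linear axis) of the 6 member probes detected on no array, with 1 point per sample, bars for the bead standard error and, for each probe, the TGF-β2, PDGF-BB and control samples from left to right. Undetected A and B are ILMN_1234539 and ILMN_2711172 of Irgm1, and A and B of Iigp1 are ILMN_1229996 and ILMN_2612776; all 72 values lie between -43.7 and 44.7, under the band from 46.9 to 82.4 that holds the lowest detected signal of the 12 arrays.

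Over the 6 undetected probes, 60 of 72 values lay within 2 bead standard errors of 0, 6 lay above that and 6 below. Of the detection p-values, 0 of 72 were below 0.05 and 3 were below 0.1. The statement that Irgm1 was carried at a high signal thus rests on 1 of its 3 probes.

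This disagreement between probes was shared with other genes. On the array 4776 genes had more than 1 probe, and 12 of these had a probe detected on all 12 arrays. In 9 of the 12 another probe of the gene was detected on 0 arrays, and in 6, Irgm1 among them, every other probe was. Erich5, for example, had 1 probe on 12 arrays and the other on 0, while Ptpn11, the phosphatase SHP-2, had 1 probe on 12 arrays and the other 3 on 2, 2 and 0. At the other end, Fth1, the ferritin heavy chain, had 1 probe on 12 arrays and another on 10. Only Rpl23, a protein of the large ribosomal subunit, had more than 1 probe on all 12. Its remaining probes were detected on 1 array and on 0 arrays, so Rpl23 also held the disagreement.

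The signal of Irgm1 was higher on arrays that detected more probes. Across the 12 samples, log2 Irgm1 signal and the log2 number of detected probes had a Pearson r of 0.850 and a Spearman rho of 0.951. No test is given, since a probe picked for a high rank on every array follows the brightness of the array. Without the 2 samples farthest from the median number of detected probes, TGF-β2 sample 3 and control sample 3, r was 0.759 and rho 0.927. Within chip 1, r was 0.815 and rho 0.943 over 6 samples, and within chip 2, r was 0.898 and rho 0.943 over 6 samples. PDGF-BB sample 1 lay below the others, with an Irgm1 signal of 207 at 421 detected probes, against 1151 at 322 detected probes in PDGF-BB sample 2. The 2 measures come from the same array, and the scanner signals of the other 24 named probes detected on all 12 arrays moved with that of Irgm1 (r 0.708 to 0.927).

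**Figure D3:**
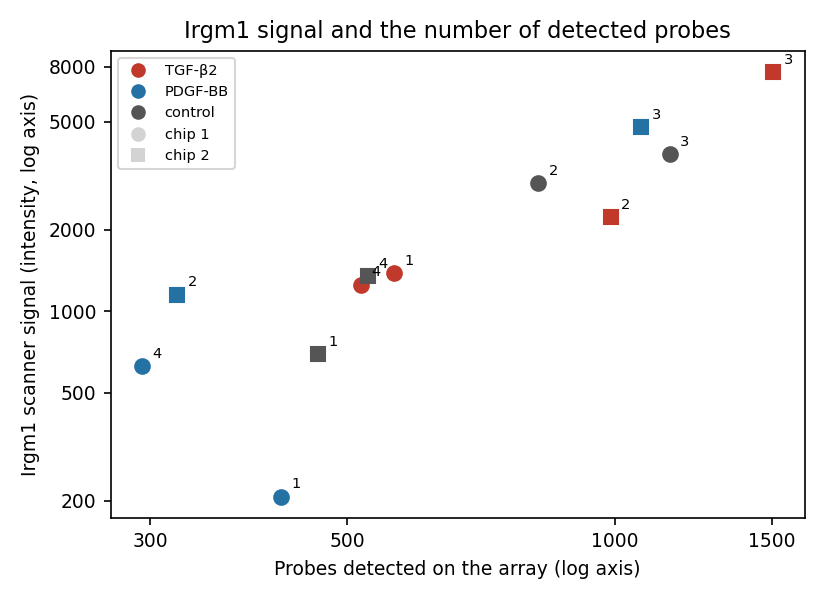
Scanner signal of the detected Irgm1 probe against the number of probes detected on the same array (both log axes), 1 point per sample, coloured by group, numbered by sample and shaped by chip. Irgm1 was brighter on arrays that detected more probes, with a Spearman rho of 0.951, and PDGF-BB sample 1 lies lowest, at 207.

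The comparison of groups asked whether TGF-β2 or PDGF-BB treatment changed the Irgm1 content of the exosomes. No difference was detected in the scanner signal. Mean log2 signals were 11.19 ± 1.20 for TGF-β2, 9.84 ± 1.89 for PDGF-BB and 10.82 ± 1.12 for control (SD, n = 4 each). The difference was 0.37 for TGF-β2 minus control (two-sided exact permutation p = 0.686), -0.97 for PDGF-BB minus control (exact permutation p = 0.457) and 1.34 for TGF-β2 minus PDGF-BB (exact permutation p = 0.257). Adjusted over the 3 comparisons, each of these exact p-values was 0.686, and the smallest p this design allows is 0.0286. The chips disagreed. TGF-β2 minus control was -1.35 within chip 1 and 2.09 within chip 2, and PDGF-BB minus control was -3.22 within chip 1 and 1.28 within chip 2. TGF-β2 minus PDGF-BB was 1.87 within chip 1 and 0.81 within chip 2, with 2 samples per group on each.

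After background correction and quantile normalization between arrays, the log2 intensity of Irgm1 was 11.14, 10.79, 11.61 and 11.14 in TGF-β2 samples 1 to 4. It was 10.79, 11.61, 11.14 and 10.50 in PDGF-BB samples 1 to 4, and 11.61, 10.63, 11.26 and 10.63 in control samples 1 to 4. Quantile normalization gives equal ranks equal values, so the 3 arrays where Irgm1 was the 3rd brightest probe, 1 of each group, all read 11.61. The narrow range, 10.50 to 11.61, therefore restates the ranks by which the gene was picked. In the table normalized by cubic splines the same probe ran from 1505 to 7900 on a linear scale. The groups overlapped.

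Means of normalized log2 intensity were 11.17 ± 0.34 for TGF-β2, 11.01 ± 0.48 for PDGF-BB and 11.03 ± 0.49 for control (SD, n = 4 each). TGF-β2 minus control was 0.13 ± 0.31 on the log2 scale (SE; limma adjusted p = 1), a 1.10-fold ratio with a 95% interval of 0.688 to 1.75. PDGF-BB minus control was -0.023 ± 0.31 (SE; limma adjusted p = 0.999), a 0.984-fold ratio with an interval of 0.617 to 1.57. TGF-β2 minus PDGF-BB was 0.16 ± 0.31 (SE; limma adjusted p = 0.878), a 1.12-fold ratio with an interval of 0.699 to 1.78. These intervals leave room for changes of that size in either direction. They rest on values tied to the ranks by which the gene was picked, so they do not bound larger changes. With arrays scaled only to a common median, the SE of PDGF-BB minus control was 1.09. The first pair of comparisons share the control arrays.

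The lack of a call was not particular to Irgm1. Of 1099 probes tested, those detected on at least 3 arrays, 0 had a limma adjusted p below 0.05 in each of the 3 comparisons (0%). At an unadjusted p below 0.05 there were 8 for TGF-β2 minus control, 48 for PDGF-BB minus control and 52 for TGF-β2 minus PDGF-BB. The median log2 difference of all tested probes was 0.047, -0.056 and 0.14 in the same comparisons. The other 6 member probes did not pass the filter on detection and were left out of this test. In a fit without that filter, 0 member probes had a limma adjusted p below 0.05 in any comparison.

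The direction of the small Irgm1 differences depended on the samples and the normalization. TGF-β2 minus control was 0.32 without control sample 1 and -0.037 without TGF-β2 sample 3. PDGF-BB minus control was 0.052 without PDGF-BB sample 1, and ranged from -0.22 to 0.17 when each sample was left out in turn. Within chip 1 it was -0.30 and within chip 2 0.25. In the table that the authors normalized by cubic splines, PDGF-BB minus control was 0.35 and TGF-β2 minus PDGF-BB was -0.28. With arrays scaled only to a common median, PDGF-BB minus control was -1.29 (limma adjusted p = 0.926).

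**Figure D4:**
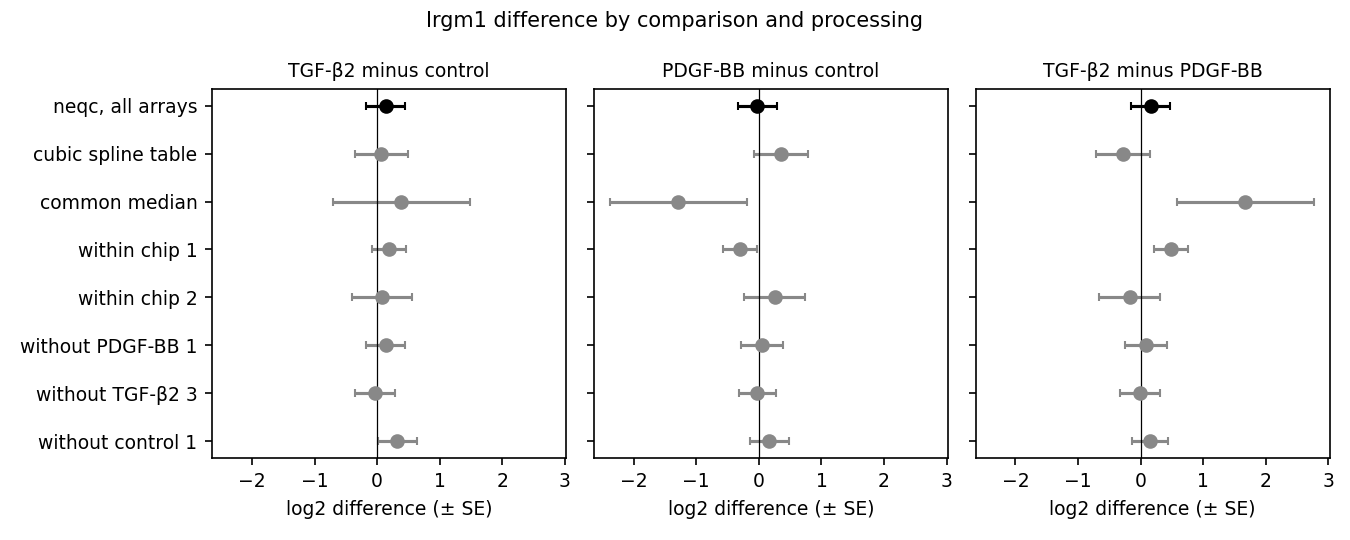
Difference in Irgm1 log2 intensity for TGF-β2 minus control, PDGF-BB minus control and TGF-β2 minus PDGF-BB (points, with bars for the standard error) under the main normalization (neqc, black) and 7 other settings (grey). Under the main normalization the points lie at 0.13, -0.023 and 0.16, and for PDGF-BB minus control and TGF-β2 minus PDGF-BB the settings fall on either side of 0, while for TGF-β2 minus control only the setting without TGF-β2 sample 3 falls below 0.

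The pattern of Irgm1 across the samples was set beside that of other probes. Among the other 24 named probes detected on all 12 arrays, the highest Pearson r with Irgm1 in normalized log2 intensity were 0.207 for Htatsf1, a factor of transcription and splicing, 0.144 for Klhdc10, a kelch-domain protein, and 0.135 for Tuba1b, an alpha-tubulin. Next were Rpl23 (ILMN_2742807) with 0.131 and Serbp1, an mRNA-binding protein, with 0.117. Another Rpl23 probe among the 24, ILMN_2946482, went the other way with -0.350. The lowest was -0.729 for Wbp1l, and 8 of the 24 were positive. In scanner signal, which carries the overall brightness of each array, r was 0.708 to 0.927 for the same 24 probes, with a median of 0.865. These correlations are over 12 arrays that share groups and chips, and they are a description.

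Lists of related genes were counted in the same way. Of 6 other immunity-related GTPase genes on the array, 1 was detected on any array. It was Irgq, a distant member of the family, on 2 arrays of the TGF-β2 group, 0 of the PDGF-BB group and 0 of the control group. Of 11 guanylate-binding protein genes and their very large relatives, which work beside the immunity-related GTPases on vacuoles, 2 were detected, Gbp3 on 1 PDGF-BB array and Gvin1 on 1 control array. Over all 16593 named genes, 17.3% were detected on at least 1 array and 2.08% on at least 6, so these shares, 1 of 6 and 2 of 11, lay near the background.

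Of 18 genes of interferon receptors and signalling, 5 were detected on at least 1 array (27.8%, against 17.3% of all named genes) and 1 on at least 6. Pias1, a SUMO ligase, was detected on 2 TGF-β2, 2 PDGF-BB and 2 control arrays. Ifngr2, the signalling chain of the interferon gamma receptor, was detected on 1 array of each group. Of 33 interferon-stimulated antiviral genes, 5 were detected on at least 1 array (15.2%). Samhd1, which breaks down deoxynucleotides, led with 1 TGF-β2, 0 PDGF-BB and 2 control arrays. The other 4, Ddx58, Ifi27, Ifih1 and Oas1g, were detected on 1 array each.

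Of 16 genes of MHC class I antigen presentation, which interferon gamma also raises, 2 were detected on at least 1 array (12.5%, against 17.3% of all named genes). Psmb10, a subunit of the immunoproteasome, was detected on 2 TGF-β2, 1 PDGF-BB and 0 control arrays. Erap1, which trims peptides in the endoplasmic reticulum, was detected on 0 TGF-β2, 1 PDGF-BB and 1 control array. Of 26 core genes of autophagy, 5 were detected on at least 1 array (19.2%), near the same background. Wipi2, which binds the growing autophagosome membrane, was detected on 2 TGF-β2, 2 PDGF-BB and 3 control arrays. Gabarap and Ulk1, the ubiquitin-like protein and the starting kinase of the pathway, were detected on 1 TGF-β2, 1 PDGF-BB and 0 control arrays each. Of the genes in these 6 lists 0 were detected on all 12 arrays, against 24 of all 16593 named genes, so that a count of 0 does not set the lists apart.

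The 5 list genes detected on at least 3 arrays were tested between the groups, and 0 of 5 passed in any comparison, against 0% of all tested probes. For Pias1, TGF-β2 minus control was -0.21 ± 0.40 and PDGF-BB minus control was 0.35 ± 0.40 on the log2 scale (SE; limma adjusted p = 1 and 0.936). For Wipi2 these differences were -0.26 ± 0.39 and -0.15 ± 0.39 (SE; limma adjusted p = 1 and 0.995). Ifngr2, Samhd1 and Psmb10 differed from the control by -0.15 to 0.22 in either treatment.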

How the data were processed

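Exosome RNA of 12 HL-1 samples was hybridised to MouseRef-8 BeadChips, 1 array each. The deposited scanner intensity is the background-subtracted mean bead signal, not normalized between arrays. The deposited detection p-value moves in steps of 1 in 798 negative controls. The authors also deposited bead numbers and bead standard errors, and an intensity table they had normalized by cubic splines (BeadStudio per the methods, GenomeStudio per the labels). Groups came from the titles, and array names placed 2 arrays of each group on either of 2 chips. Probes were named from the platform annotation.

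Negative control moments were inferred from detection p-values, and normexp and quantile normalization with an offset of 16 gave log2 intensity (neqc, limma 3.58.1, R 4.3.3). The authors deposited no log2 values. Probes detected (p below 0.01) on at least 3 arrays, 1099 in all, were compared by limma, two-sided, with Benjamini-Hochberg adjustment over all 1099 and a threshold of 0.05. Scanner signals were compared by exact permutation over 70 assignments. The limma step was tested on simulated data. Members and lists were chosen with earlier results of these data known. List genes were named when detected on at least 6 arrays, or the 2 detected on most where fewer were, ties included. Cd14, Erich5, Fth1, Ptpn11 and the Rpl23 probes were named after their values were seen. Alternatives were other normalizations, offsets and filters, chip and replicate blocks, each chip alone and leaving out arrays. Arrays carry no counts, and their number limits the precision.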

Additional observations from a re-analysis of the deposited data

Results flagged for a closer look

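Of 33 groups of 4 values examined for a sample far from the others, 4 stood out. All 4 came from the detected Irgm1 probe, which entered on several scales. The groups are therefore not independent, and no chance rate is set beside the count. In log2 scanner signal and in normalized log2 intensity no Irgm1 sample stood out. The Irgm1 scanner signal of TGF-β2 sample 3 was 7639, against 1254 to 2224 in the other samples of its group. The share of Irgm1 in the summed detected signal of the same sample was 2.26%, against 1.62 to 1.68% in the others. In the table normalized by cubic splines, Irgm1 was 1945 in TGF-β2 sample 2, against 2682 to 2763 in the others of that group. In the same table it was 5007 in control sample 1, against 1676 to 1967 in the others of that group.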

How the results depend on the processing

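No member probe passed the threshold under any of the 21 alternatives tried for each comparison. The 21 leave out each chip alone, where calls of members were not counted. Except in the fit without a filter on detection, only the detected Irgm1 probe was tested, so only it could be called. Of the 7 probes, 1 was detected under each of 14 alternatives, a detection threshold of 0.05 included. Most of these left out 1 array. That could not change the count, since 1 probe was detected on every array and the others on none. The detected probe is also of the gene picked by its signal, so this stability supports nothing. The direction of the Irgm1 difference was not stable. In the cubic spline table PDGF-BB minus control was 0.35 and TGF-β2 minus PDGF-BB -0.28, and within chip 2 these were 0.25 and -0.17. Leaving out each array in turn gave -0.037 to 0.32 for TGF-β2 minus control, -0.22 to 0.17 for PDGF-BB minus control and -0.014 to 0.36 for TGF-β2 minus PDGF-BB. The reversals came without TGF-β2 sample 3, PDGF-BB sample 1 or 4, or control sample 1 or 3. Without the arrays of lowest and highest Irgm1 signal, a setting chosen after seeing the data, the 3 differences were -0.034, 0.042 and -0.076. In scanner signal, TGF-β2 minus control was -1.35 within chip 1 and -0.20 to 0.73 with each array left out, PDGF-BB minus control was 1.28 within chip 2 and -1.77 to -0.26 with each array left out, and TGF-β2 minus PDGF-BB was 0.62 to 2.13 with each array left out. The cause was not tested. The differences with a replicate block were 0.13, -0.023 and 0.16, as without it. Each number occurs once in each group, so the block could not change them. Only the SE could move, and it was 0.30 with the block and 0.31 without. Correlations of same-numbered samples ran from -0.23 to 0.43. Those of samples with different numbers were not computed, so whether the numbers pair the samples was not settled. Over all 1099 tested probes, the 0 calls became 24 for PDGF-BB minus control and 3 for TGF-β2 minus PDGF-BB within chip 1, and of 1060 probes 2 and 1 without control sample 1; no member was called without control sample 1. Undetected members have no measured difference, since their signals did not rise above the negative controls.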
